A study of Komagataella pastoris with 6 samples.

Results

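The genes described here encode the catalytic head and the rotating central stalk of F1, the matrix part of the mitochondrial ATP synthase. They are *ATP1* (BQ9382_C3-3350) for the alpha subunit, *ATP2* (BQ9382_C2-0955) for the beta subunit, *ATP3* (BQ9382_C1-6620) for the gamma subunit and *ATP16* (BQ9382_C1-6510) for the delta subunit. These 4 of the 5427 genes in the count table were taken by locus tag after their annotation, and measured values were not part of the rule. The study had picked out the genes of ATP synthase on these same libraries. Neither the direction nor the size of their change relative to *GS115*-YPA is therefore independent evidence. The epsilon subunit, which also belongs to the central stalk, and the subunits encoded in the mitochondrial genome are not analysed here.

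ATP synthase uses the proton gradient across the mitochondrial inner membrane, which the respiratory chain builds, to make ATP from ADP and phosphate. Alpha and beta subunits alternate in a ring, the catalytic sites lie mainly on the beta subunits, and the gamma subunit turns inside the ring together with the small subunits at its foot. The Fo part conducts protons through the membrane, and a peripheral stalk keeps the ring from turning with the rotor. Acetate is not fermented, so yeast growing on it depends on respiration for much of its ATP.

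Transcripts were measured by RNA-seq in 3 groups of 2 libraries each, all from cultures of the methylotrophic yeast that the study calls *K. phaffii* and the labels *Komagataella pastoris*, after 24 h in YPA, a rich medium of yeast extract and peptone with acetate. *X33*-YPA (libraries C and D) is the histidine prototroph *X33*, genotype *HIS4*, without added histidine. *GS115*-YPAH5x (libraries E and F) is the histidine auxotroph *GS115*, genotype *his4*, in YPA with 650 µM histidine. *GS115*-YPA (libraries A and B) is the same auxotroph without added histidine and was the control of the study. The labels describe strains of both genotypes as wild type. The *HIS4* allele and any other difference between the strains cannot be told apart in *X33*-YPA.

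Library totals ran from 32194047 to 43447246 counts, and every member had at least 4130 counts in every library. *HIS4* was transcribed in all 6 libraries, at 181 to 501 CPM, so its level does not check the genotypes. CPM here are counts relative to the library total, scaled by TMM, a factor that allows for differences in the make-up of the RNA. Nothing in the labels says that the paired libraries came from separate cultures, so p-values measure only the spread between these libraries, which may be technical. A library samples the RNA of a whole culture, and more transcripts in each cell and more cells that carry them cannot be told apart. Reads per gene also depend on the length of the gene, for which no value was used here, so levels are compared between groups and not between genes.

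Together the 4 genes took 1.55% and 1.6% of all counts in *X33*-YPA, 0.997% and 0.999% in *GS115*-YPAH5x, and 0.161% and 0.171% in *GS115*-YPA. The groups did not overlap, and the mean share was 9.45-fold higher in *X33*-YPA and 6.0-fold higher in *GS115*-YPAH5x than in *GS115*-YPA. The 95% Wilson intervals of these shares were at most 0.00426 percentage points to either side and cover counting error only. For the sum, the intervals of C and D and those of A and B did not overlap, while those of E and F did. By single members they did not overlap between C and D for *ATP1*, *ATP2* and *ATP3*, between E and F for *ATP2* and *ATP16*, and between A and B for all 4, so the duplicates of each group differed by more than counting error. A share is taken of the library total and, unlike the CPM, does not allow for differences in the make-up of the RNA. Under library totals only, the median log2 fold change of all genes was -0.20 for *GS115*-YPAH5x against *GS115*-YPA. For *X33*-YPA that median was 0.08 against *GS115*-YPA, but 0.29 against *GS115*-YPAH5x. The folds between shares are read against these shifts.

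*ATP1*, for the noncatalytic alpha subunit, had 5247 and 5788 CPM in *X33*-YPA, against 4208 and 4223 CPM in *GS115*-YPAH5x and 559 and 659 CPM in *GS115*-YPA. *ATP2*, for the beta subunit, had 6571 and 7299 CPM in *X33*-YPA, against 5589 and 5707 CPM in *GS115*-YPAH5x and 686 and 781 CPM in *GS115*-YPA. Both genes were low in libraries A and B and high in the other 4, with *X33*-YPA the highest group. *ATP3*, for the gamma subunit that forms the shaft of the rotor, had 1138 and 1109 CPM in *X33*-YPA, against 811 and 802 CPM in *GS115*-YPAH5x and 172 and 164 CPM in *GS115*-YPA. *ATP16*, for the delta subunit at the foot of the stalk, had 962 and 1019 CPM in *X33*-YPA, against 471 and 450 CPM in *GS115*-YPAH5x and 111 and 94.6 CPM in *GS115*-YPA. All 4 genes kept the order *X33*-YPA, *GS115*-YPAH5x, *GS115*-YPA, and no library of one group reached into another, as was the case for 16.3% of all genes tested. For *ATP16* the *GS115*-YPAH5x libraries stood further below *X33*-YPA than for the other members.

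**Figure D1:**
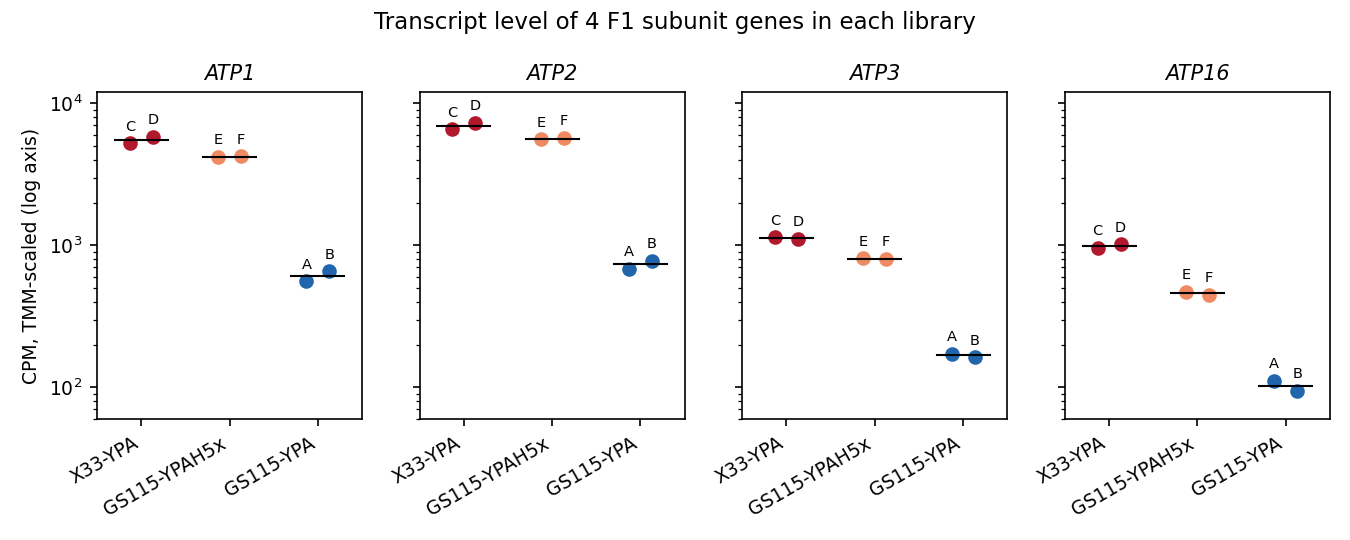
TMM-scaled CPM on a log axis of *ATP1*, *ATP2*, *ATP3* and *ATP16* in each library, lettered as in the text, with lines at the group means of 2 libraries. *GS115*-YPA lies lowest in every panel, and the step between *X33*-YPA and *GS115*-YPAH5x is widest for *ATP16*, at means of 990.5 and 460.5 CPM.

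In *X33*-YPA, the comparison of the prototroph with the auxotroph, all 4 members rose relative to *GS115*-YPA at an adjusted p under 0.05 from edgeR, where 33.4% of all genes tested were called higher. All 4 also reached a log2 fold change of 2 or more, the threshold of the study, as did 2.54% of all genes. The study chose ATP synthase genes by their change on these libraries. Passing this threshold and ranking high are thus in part fixed, here and in *GS115*-YPAH5x, and only describe the genes. On the log2 scale *ATP1* rose by 3.18 (SE 0.16, adjusted p = 3.99e-07 from edgeR) and *ATP2* by 3.24 (SE 0.16, adjusted p = 3.36e-07). For *ATP16* it was 3.27 (SE 0.16, adjusted p = 3.36e-07 from edgeR), a 9.62-fold difference, and for *ATP3* it was 2.74 (SE 0.14, adjusted p = 4.57e-07). Ranked by log2 fold change among 5426 genes, *ATP16*, *ATP2*, *ATP1* and *ATP3* held places 28, 29, 31 and 52. *ATP1*, *ATP2* and *ATP16* thus stood close together, and *ATP3* below them.

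In *GS115*-YPAH5x, the comparison of the auxotroph with and without added histidine, all 4 members rose as well, against 30.7% of all genes called higher. All 4 again reached a log2 fold change of 2 or more, as did 2.62% of all genes. The members were less alike here. *ATP1* and *ATP2* had log2 fold changes of 2.79 (SE 0.16, adjusted p = 1.14e-06 from edgeR) and 2.95 (SE 0.15, adjusted p = 8.98e-07). *ATP3* had 2.26 (SE 0.14, adjusted p = 1.55e-06 from edgeR) and *ATP16* had 2.16 (SE 0.15, adjusted p = 2.61e-06). Their places among 5426 genes were 36 for *ATP2*, 46 for *ATP1*, 95 for *ATP3* and 110 for *ATP16*. Both comparisons share the libraries of *GS115*-YPA, so the likeness of their values is in part fixed.

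The direct comparison of *X33*-YPA with *GS115*-YPAH5x does not use the level of *GS115*-YPA. It sets histidine made by the cell beside histidine supplied in the medium, in different strains. Of the members, 2 were called higher in *X33*-YPA and none lower, where 19.8% of all genes were called higher and 21.6% lower. None of the members reached a log2 fold change of 2, as did 0.0369% of all genes. *ATP16* was 2.15-fold higher in *X33*-YPA (log2 fold change 1.10, 95% interval 0.78 to 1.43, adjusted p = 0.000655 from edgeR), place 100 of 5426. *ATP3* was 1.39-fold higher (log2 fold change 0.48, 95% interval 0.18 to 0.77, adjusted p = 0.0170 from edgeR). *ATP1* and *ATP2* did not pass, with log2 fold changes of 0.39 (95% interval 0.06 to 0.71, adjusted p = 0.0560 from edgeR) and 0.30 (95% interval -0.02 to 0.61, adjusted p = 0.122). The intervals for *ATP1* and *ATP2* still allow a difference of up to 0.71 and 0.61, so a similar level in both groups is not shown, and *ATP1* passed without library A or B (adjusted p = 0.0173 and 0.0168 from edgeR). The call for *ATP3* was lost without library C, D, E or F, with adjusted p = 0.0788, 0.0738, 0.120 and 0.159 from edgeR, while that for *ATP16* held with any library left out (adjusted p at most 0.0112).

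Ratios of counts within a library do not depend on scaling. For counts of *ATP2* over *ATP1*, the ratio was 1.25 and 1.26 in *X33*-YPA, 1.33 and 1.35 in *GS115*-YPAH5x, and 1.23 and 1.19 in *GS115*-YPA. It moved by at most 1.11-fold between group means, although both genes changed between 6.92-fold and 9.46-fold relative to *GS115*-YPA. With 2 libraries against 2 an exact permutation test cannot give a two-sided p below 0.333, so no ratio can be called and only the values and their overlap are described.

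The ratio of *ATP16* to *ATP2* set *GS115*-YPAH5x apart. It was 0.146 and 0.140 in *X33*-YPA, 0.0843 and 0.0788 in *GS115*-YPAH5x, and 0.162 and 0.121 in *GS115*-YPA. *X33*-YPA lay within the range of *GS115*-YPA, whereas both *GS115*-YPAH5x libraries lay below all others. The log2 ratio was higher by 0.81 in *X33*-YPA than in *GS115*-YPAH5x, a 1.75-fold difference (exact permutation p = 0.333, the smallest possible). Libraries A and B differed in this ratio by more than C from D or E from F, which limits how closely its level in *GS115*-YPA is known.

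Counts of *ATP3* fell behind those of *ATP2* in *X33*-YPA and *GS115*-YPAH5x. The ratio of *ATP3* to *ATP2* was 0.173 and 0.152 in *X33*-YPA, 0.145 and 0.141 in *GS115*-YPAH5x, and 0.251 and 0.210 in *GS115*-YPA. Relative to *GS115*-YPA the ratio was 0.707-fold in *X33*-YPA and 0.622-fold in *GS115*-YPAH5x, with no overlap (exact permutation p = 0.333 each). The ratio of *ATP16* to *ATP3*, between the parts of the central stalk, was 0.845 and 0.919 in *X33*-YPA, 0.581 and 0.561 in *GS115*-YPAH5x, and 0.646 and 0.578 in *GS115*-YPA. Here *X33*-YPA was the group that lay apart, and *GS115*-YPAH5x overlapped *GS115*-YPA.

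**Figure D2:**
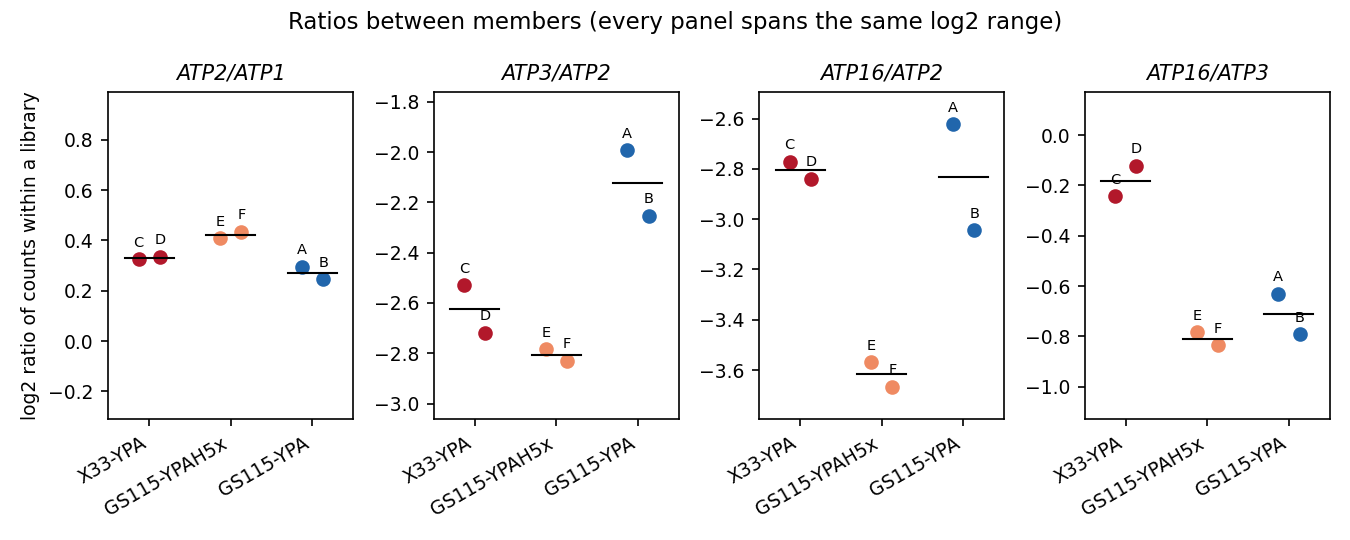
Log2 ratio of counts within each library for pairs of members, lettered by library, with lines at the group means of 2 libraries and the same log2 span in every panel. *ATP2*/*ATP1* stays nearly level, *ATP3*/*ATP2* is highest in *GS115*-YPA, and *ATP16*/*ATP2* is lowest in *GS115*-YPAH5x at a mean log2 ratio of -3.62.

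The other 10 subunits in the table belong to the peripheral stalk and to the membrane part. Together they took 0.362% and 0.379% of counts in *X33*-YPA, 0.19% and 0.176% in *GS115*-YPAH5x, and 0.0539% and 0.0522% in *GS115*-YPA. All 10 rose in *X33*-YPA and in *GS115*-YPAH5x relative to *GS115*-YPA, where 33.4% and 30.7% of all genes were called higher. Their medians were 2.69 and 1.76 on the log2 scale, beside 3.21 and 2.53 for the members and 0.01 and 0.00 for all genes tested. All 10 reached a log2 fold change of 2 in *X33*-YPA, as did 2.54% of all genes, and in *GS115*-YPAH5x only *ATP4* did, where 2.62% of all genes reached it. These genes too were among those the study chose on these libraries.

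Of the peripheral stalk, *ATP4*, for subunit b, reached 3.0 on the log2 scale in *X33*-YPA and 2.60 in *GS115*-YPAH5x, between those of *ATP3* and *ATP1*. *ATP5*, for the subunit that joins the stalk to the head, had 2.55 and 1.71, *ATP7*, for subunit d, had 2.64 and 1.92, and BQ9382_C2-4550, for subunit h, had 2.73 and 1.81. Of the membrane part, *ATP18* (subunit i/j) had 2.85 and 1.97, BQ9382_C3-6240 (subunit f) 2.76 and 1.84, BQ9382_C4-0090 (subunit e) 2.92 and 1.59, and *ATP20* (subunit g) 2.25 and 1.71. Subunits e and g take part in pairing of the enzyme into dimers in *Saccharomyces cerevisiae*. BQ9382_C3-5675, annotated as subunit K, had 2.58 and 1.49, and BQ9382_C3-6325, annotated as the K chain, had 2.63 and 1.20. In each of these pairs the first value is that of *X33*-YPA, and all passed at an adjusted p of at most 0.000439 from edgeR.

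In the direct comparison 9 of the 10 were higher in *X33*-YPA than in *GS115*-YPAH5x and none lower, where 19.8% of all genes were called higher and 21.6% lower. Their median log2 difference was 0.90, beside 0.43 for the members and 0.03 for all genes. *ATP4* did not pass (log2 fold change 0.40, adjusted p = 0.0593 from edgeR). It did pass in a fit of only the 2 groups (0.40, adjusted p = 0.0131 from edgeR) and with a minimum of 10 CPM in 2 libraries (0.42). The same held for upper quartile scaling (0.53) and library totals (0.67), so *ATP4* is not a stable exception. The call for *ATP20*, at 0.54 in the fit reported, did not hold without library D, E or F. Its log2 fold change was then 0.36, 0.53 and 0.55. The call for *ATP7*, at 0.72, did not hold without library F (0.67). The largest differences were those of the K chain at 1.43, subunit e at 1.33, *ATP16* at 1.10 and subunit K at 1.09. *ATP2*, *ATP1* and *ATP4* had the smallest of the 14 genes. *ATP16* thus lay among some subunits of the membrane part in this comparison, but not all. Subunit f at 0.92, *ATP18* at 0.88 and *ATP20* at 0.54, also of the membrane part, lay below it.

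**Figure D3:**
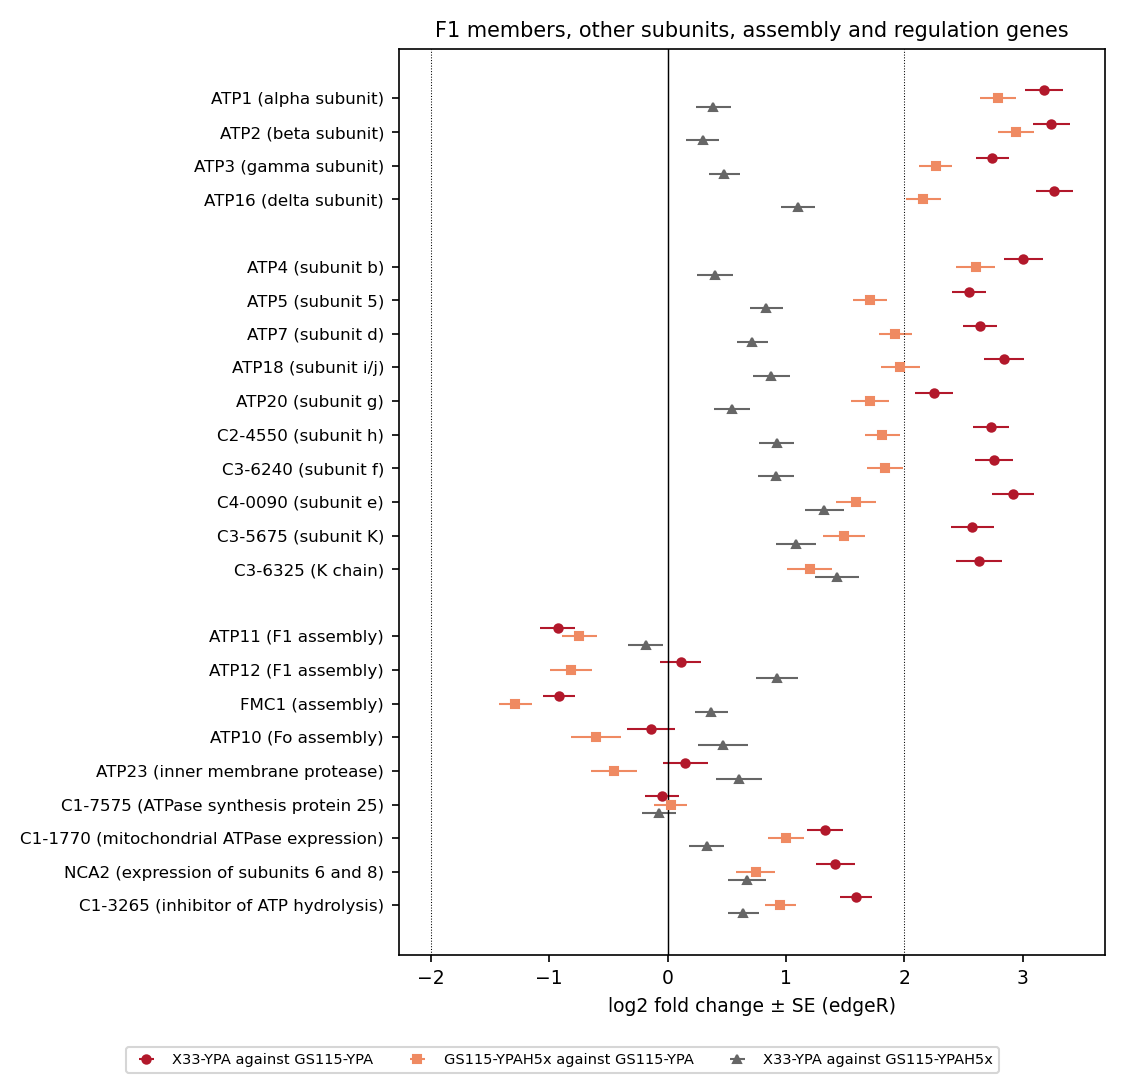
Log2 fold change with its SE from edgeR for the 4 members (top), the other 10 subunits (middle) and 9 genes for assembly and regulation (bottom), in *X33*-YPA and in *GS115*-YPAH5x against *GS115*-YPA and in *X33*-YPA against *GS115*-YPAH5x, with dotted lines at log2 fold changes of 2 and -2. Against *GS115*-YPA all 14 subunits lie at 1.20 or more, whereas the assembly genes lie on both sides of 0.

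Genes for the assembly and regulation of ATP synthase did not move as one group. Of 9 genes, *X33*-YPA had 3 higher, 2 lower and 4 that did not pass, and *GS115*-YPAH5x had 3 higher, 4 lower and 2 that did not pass, where 33.4% and 30.7% of all genes were called higher and 32.8% and 29.1% lower. The share called higher thus lay near that of all genes. The medians were 0.11 and -0.45. BQ9382_C1-3265, annotated as an inhibitor of ATP hydrolysis by F1, had 539 and 567 CPM in *X33*-YPA, against 349 and 361 CPM in *GS115*-YPAH5x and 184 and 184 CPM in *GS115*-YPA. It rose by log2 fold changes of 1.59 and 0.95 (SE 0.13 each, adjusted p = 6.46e-06 and 0.000199 from edgeR), and *NCA2*, which acts on the expression of mitochondrially encoded subunits in *S. cerevisiae*, by 1.42 and 0.74 (adjusted p = 4.85e-05 and 0.00322).

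The genes for factors that assemble the catalytic head did not rise in either group. *ATP11*, whose product binds free beta subunits in *S. cerevisiae*, had 35.6 and 39.3 CPM in *X33*-YPA, against 41.2 and 44.0 CPM in *GS115*-YPAH5x and 64.1 and 78.5 CPM in *GS115*-YPA. It fell by 0.93 in *X33*-YPA and by 0.74 in *GS115*-YPAH5x on the log2 scale (adjusted p = 0.000316 and 0.00158 from edgeR), while its client *ATP2* rose in both. The remaining genes of this list were named after their values were seen. *FMC1*, for a factor needed for F1 assembly at high temperature in *S. cerevisiae*, fell by 0.92 and by 1.29 (adjusted p = 0.000237 and 4.02e-05 from edgeR). *ATP12*, whose product binds free alpha subunits, had 35.4 and 39.3 CPM in *X33*-YPA, against 19.6 and 19.7 CPM in *GS115*-YPAH5x and 28.5 and 40.7 CPM in *GS115*-YPA. In *X33*-YPA its libraries overlapped those of *GS115*-YPA (log2 fold change 0.11, adjusted p = 0.590 from edgeR), and the gene fell by 0.81 in *GS115*-YPAH5x (adjusted p = 0.00301 from edgeR). *ATP12* was the assembly gene with the largest direct difference, 0.93 higher in *X33*-YPA than in *GS115*-YPAH5x (adjusted p = 0.00347 from edgeR).

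The carriers that supply the enzyme with its substrates did not reach a log2 fold change of 2 or -2. Few genes did relative to *GS115*-YPA. In *X33*-YPA 2.54% of all genes reached 2 or more and 4.26% reached -2 or less, and in *GS115*-YPAH5x 2.62% and 2.71%. The ADP/ATP carrier BQ9382_C4-4215 had 2700 and 2735 CPM in *X33*-YPA, against 1556 and 1597 CPM in *GS115*-YPAH5x and 1780 and 1857 CPM in *GS115*-YPA. Its log2 fold change was 0.58 in *X33*-YPA (adjusted p = 0.00327 from edgeR) and -0.21 in *GS115*-YPAH5x (adjusted p = 0.202 from edgeR). The latter was -0.34 under upper quartile scaling and -0.41 under library totals (adjusted p = 0.0416 and 0.0163 from edgeR). Those settings moved the median of all genes to -0.13 and -0.20. The phosphate carrier BQ9382_C1-7445 rose by 0.60 and 0.38 (adjusted p = 0.00311 and 0.0345 from edgeR). Its value in *GS115*-YPAH5x did not pass under upper quartile scaling, library totals, a minimum of 10 CPM in 2 libraries, or a fit of only the 2 groups. It also did not pass without the 10 most abundant genes that are not members (adjusted p = 0.0520 from edgeR). The call in *GS115*-YPAH5x was lost without library A, C, D, E or F (adjusted p = 0.106, 0.0816, 0.0805, 0.150 and 0.221 from edgeR). A further gene annotated as a phosphate carrier, BQ9382_C4-2545, had 58.9 and 68.0 CPM in *X33*-YPA, against 172 and 175 CPM in *GS115*-YPAH5x and 133 and 200 CPM in *GS115*-YPA. It fell by 1.39 on the log2 scale in *X33*-YPA (adjusted p = 0.000150 from edgeR). In *GS115*-YPAH5x it had 0.06 (adjusted p = 0.790 from edgeR), and from -0.24 to 0.39 with a library left out, so the sign was not stable.

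*ARC1*, for a protein that binds aminoacyl-tRNA synthetases and that the study set beside the ATP synthase genes, had 109 and 124 CPM in *X33*-YPA, against 139 and 145 CPM in *GS115*-YPAH5x and 245 and 295 CPM in *GS115*-YPA. It fell by 1.21 and by 0.93 on the log2 scale (adjusted p = 7.17e-05 and 0.000505 from edgeR), short of the threshold of 2. *X33*-YPA and *GS115*-YPAH5x did not differ past the test (log2 fold change -0.29, 95% interval -0.62 to 0.05, adjusted p = 0.149 from edgeR).

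Complexes III and IV of the respiratory chain pump protons and so help to build the gradient. Most of their genes rose too, with smaller medians than the members. The study had picked out the members by their change on these libraries, so their larger medians are in part fixed. Of 16 subunits of complexes III and IV with cytochrome c, 14 rose and none fell in *X33*-YPA (median 1.16). In *GS115*-YPAH5x 13 rose and 1 fell (median 0.82). Of all genes, 33.4% and 30.7% were called higher and 32.8% and 29.1% lower. Some calls in *GS115*-YPAH5x did not hold with a library left out. Without library F these were *QCR6* (0.43), *QCR8* (0.59), BQ9382_C4-2385 (0.48) and BQ9382_C2-3055 (0.35), all of complex III. The complex IV subunit BQ9382_C2-5035 rose by 1.71 and 1.32 (adjusted p = 1.71e-05 and 0.000109 from edgeR). *QCR1*, for a core protein of complex III, had -0.14 and 0.01 and did not pass. Cytochrome c (BQ9382_C4-5240), which carries electrons between these complexes, had 0.12 in *X33*-YPA (adjusted p = 0.482 from edgeR) and fell by 0.59 in *GS115*-YPAH5x (adjusted p = 0.00633 from edgeR), a call lost without library E or F (adjusted p = 0.0560 and 0.0524 from edgeR). In the direct comparison 8 of the 16 were higher in *X33*-YPA, against 19.8% of all genes, or 5, 5 and 4 without library D, E or F.

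The members do not neighbour each other by locus tag, and no gene next to them reached their change. The 16 genes next to them by locus tag number, a pair on each side of each member, had 8 higher, 3 lower and 5 not passed in *X33*-YPA, and 7, 3 and 6 in *GS115*-YPAH5x. Of all genes, 33.4% and 30.7% were called higher and 32.8% and 29.1% lower. Their medians were 0.44 and 0.27, their highest log2 fold changes 1.66 and 1.49, and none reached 2 or -2. Of all genes, 2.54% and 2.62% reached 2 or more, and 4.26% and 2.71% reached -2 or less. With shares this small, none among 16 genes lies near the background and says little about the loci. In the direct comparison 2 were higher and 1 lower, where 19.8% and 21.6% of all genes were. Order by locus tag stands in for position, since no coordinates of this assembly were used.

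**Figure D4:**
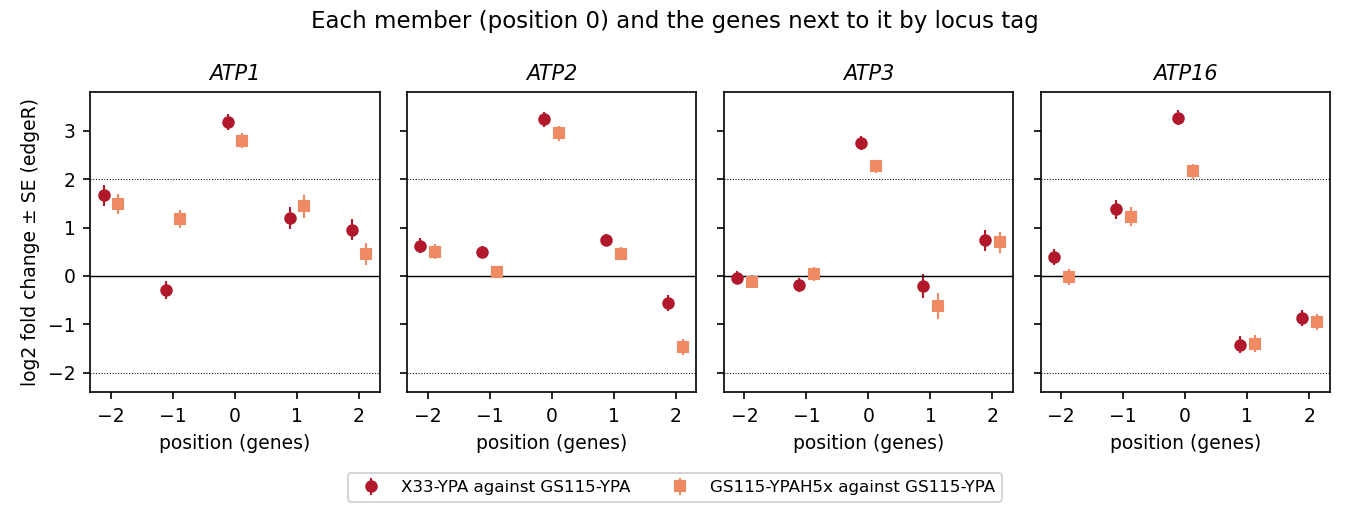
Log2 fold change with its SE from edgeR of each member (position 0) and of the genes next to it, by order of locus tag, in *X33*-YPA and in *GS115*-YPAH5x against *GS115*-YPA, with dotted lines at 2 and -2. The members stand at 2.16 or more, and none of the 16 neighbours passes 1.66.

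Likeness of pattern was measured as the root mean square difference between log2 CPM of a pair of genes over the 6 libraries, after each gene was centred on its own mean. *ATP1* and *ATP2* were each other's nearest gene of 5425, with a difference of 0.06. *ATP3* and *ATP16* were at 0.28 from each other, place 45 of the genes around *ATP3* and place 16 of those around *ATP16*. Around the mean pattern of the members, *ATP4* came first of 5426 genes at 0.12, before *ATP1* in place 3, *ATP3* in place 7, *ATP2* in place 8 and *ATP16* in place 15. The other 9 subunits held places 17 to 146, the last being the K chain. The members belong to their own mean, which brings them nearer to it.

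The nearest genes outside ATP synthase were BQ9382_C2-4425, annotated as an alcohol dehydrogenase, at 0.12, BQ9382_C1-2425, annotated as actin patches distal protein 1, at 0.13, BQ9382_C3-4725, for DNA topoisomerase 2, at 0.15, BQ9382_C1-7550, for flap endonuclease 1, at 0.16, and BQ9382_C4-5320, for a peptide methionine sulfoxide reductase, at 0.20. Their log2 fold changes ran between 2.69 and 3.0 in *X33*-YPA and between 2.20 and 2.60 in *GS115*-YPAH5x. None of the 5 was among the 5 nearest by Pearson correlation, which ignores the size of the change, so the list describes this measure over 6 libraries of 3 groups and no more.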

How the data were processed

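Total RNA of 6 libraries was sequenced after rRNA was removed with a kit made for bacteria, per the labels. The authors deposited raw counts of reads for each gene, 1 column per library, without pooling. Of tools, the submitters' processing notes list featureCounts 1.6.4, Bowtie2, DESeq2, fastp 0.19.6 and bcl2fastq 2.19.0.316, with no role or order. For genome build and strand setting, each is not given in the sources used here. Reads of overlapping genes, antisense genes and close copies may therefore be shared. Libraries were grouped by their labels, matched by letter.

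The analysis used edgeR 4.0.16 in R 4.3.3. Filtering by expression left 5426 of 5427 genes, and TMM gave the scaling. A quasi-likelihood model (legacy method, 3 residual degrees of freedom, common biological coefficient of variation 0.132) was fitted to all 6 libraries. Benjamini-Hochberg adjustment covered all genes in each comparison, the SE came from the F value, and log2 CPM for likeness used a prior count of 0.5. The procedure was tested on simulated data.

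The members and lists were chosen with earlier results of these data known. Lists were built from symbols and descriptions. The members, all other subunits and *ARC1* were always named, and of each other list up to 3 genes with the highest mean CPM. Neighbours were to be named only where past the fold threshold, and of genes alike in pattern the 5 nearest. Alternatives were DESeq2 1.42.0, other scalings, filters, dispersion methods and samples in the fit, removal of the 10 most abundant genes that are not members, each library left out, a pseudocount of 0.5 in ratios, Pearson correlation and symbol matches alone.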

Additional observations from a re-analysis of the deposited data

How the results depend on the processing

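Under every alternative run, the 4 members stayed higher at an adjusted p under 0.05 in both comparisons with *GS115*-YPA. All 4 kept a log2 fold change of 2 or more, except *ATP16* in *GS115*-YPAH5x under library totals only (1.96, leaving 3 members past the threshold). Upper quartile scaling and library totals moved the median of all genes to -0.13 and -0.20 in *GS115*-YPAH5x against *GS115*-YPA and to 0.15 and 0.29 in *X33*-YPA against *GS115*-YPAH5x, and changes are read against these shifts.

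The direct comparison of *X33*-YPA with *GS115*-YPAH5x depended on the processing, except for *ATP16*, which passed under every alternative. Of the members, 4 passed under upper quartile scaling and 4 under library totals, against 2 in the fit reported, and 1 to 3 with a library left out. *ATP1* passed under DESeq2 (0.38), upper quartile scaling (0.51), library totals (0.66), a minimum of 10 CPM in 2 libraries (0.40) and a fit of only the 2 groups (0.38), and had 0.31 to 0.46 with a library left out. *ATP2* passed under upper quartile scaling (0.42) and library totals (0.56). *ATP3* had 0.46 to 0.49 with a library left out and lost its call without C, D, E or F. Where that left a group 1 library, it was taken to vary like the others. Beyond the scaling shifts and fewer libraries, the cause was not tested. Of 16 genes of complexes III and IV, 14 passed under library totals and 4 to 5 without D, E or F, against 8.

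Without the 10 most abundant other genes, the members' mean share of counts was 1.95% in *X33*-YPA, 1.28% in *GS115*-YPAH5x and 0.231% in *GS115*-YPA. By Pearson correlation 0 of the 5 nearest genes remained. Symbol matches alone shorten the lists, and left 5 of the other subunits, all 5 higher in both comparisons with *GS115*-YPA and 4 in the direct one. No paired analysis was possible because the libraries carry letters and no label ties a library of one group to a library of another. Every member had at least 4130 counts in every library, and duplicates differed by more than counting error in at least 1 group for each member.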

Other observations

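The vacuolar ATPase, a related rotary enzyme that spends ATP to acidify the vacuole, was read as a further set of genes. Of its 14 genes, 12 rose and none fell in *X33*-YPA, and 12 rose and none fell in *GS115*-YPAH5x, relative to *GS115*-YPA at an adjusted p under 0.05 from edgeR. Of all genes, 33.4% and 30.7% were called higher and 32.8% and 29.1% lower. With a library left out, 12 to 13 rose in *X33*-YPA and 9 to 12 in *GS115*-YPAH5x, and without library B 1 gene fell in *GS115*-YPAH5x. The medians were 1.52 and 1.0 on the log2 scale, beside 3.21 and 2.53 for the F1 genes described above. Those F1 genes had been picked out by the study on these libraries, so their larger medians are in part fixed. BQ9382_C3-0020, for subunit B of its soluble part, had 876 and 915 CPM in *X33*-YPA, against 643 and 662 CPM in *GS115*-YPAH5x and 291 and 341 CPM in *GS115*-YPA, with log2 fold changes of 1.5 and 1.05 (adjusted p = 1.42e-05 and 0.000176 from edgeR). BQ9382_C1-3235, for the catalytic subunit A, rose by 1.81 and 1.45 (adjusted p = 4.17e-06 and 1.97e-05 from edgeR). BQ9382_C3-0745, for a proteolipid of its membrane part, rose by 1.998, just short of the threshold of 2, and by 1.22 (adjusted p = 2.62e-06 and 6.29e-05 from edgeR). Both comparisons share the libraries of *GS115*-YPA.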
